A study of Mus musculus with 4 samples.

Results

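The miR-290 to miR-295 cluster is a group of mouse microRNA (miRNA) genes on chromosome 7 that are made from 1 shared primary transcript. Its members were taken as every mouse miRNA on the array with the base name miR-290, miR-291a, miR-291b, miR-292, miR-293, miR-294 or miR-295, from either strand of the hairpin. This gave 14 of the 611 mouse miRNAs on the array, read by 48 of its 1759 mouse probes. The 14 members are the strand pairs of 7 hairpins.

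A primary miRNA transcript is cut in the nucleus into hairpins, and each hairpin is cut again into a pair of short strands. One strand, from the 5′ (5p) or the 3′ (3p) side of the hairpin, is usually retained in an Argonaute protein, and the other, marked with an asterisk in older names, is mostly degraded. The retained strand pairs with messenger RNAs mainly through its seed, bases 2 to 8, and lowers their stability and translation. The miR-290 cluster is known as the dominant miRNA locus of mouse embryonic stem cells (ESCs), where its AAGUGC-seed miRNAs promote the rapid cell cycle of these cells, and it is silenced as cells differentiate. The miR-302 and miR-367 cluster, on another chromosome, carries miRNAs with the same seed.

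The samples were neural stem and progenitor cells (NSPCs) derived from mouse ESCs and cultured as neurospheres, free-floating balls of dividing neural cells. Primary neurospheres (passage 0) had been cultured for 6 days since embryoid bodies and secondary neurospheres (passage 1) for 12 days. In every group, cells of a line overexpressing NFIA, a transcription factor known for its part in the switch to astrocyte production, had been mixed with wild-type (WT) cells in the same spheres and then separated by fluorescence-activated sorting. The 4 groups were the primary and secondary neurosphere cells titled control (CT) and titled NFIA OE, with 1 array per group and no replicate. The ESC strain, the promoter of the NFIA transgene and the number of clones are not given in the sources used here.

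Titles and source names conflict on NFIA status. The arrays titled control have source names that call the cells the NFIA OE line, in both passages, and the arrays titled NFIA OE have source names that call them WT. Groups here follow the titles. If the source names are right, every difference by title below changes its sign, while differences by passage do not.

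The arrays had 1 colour and gave a background-subtracted intensity for each spot. Detection of a probe on an array required 50% or more of its spots to exceed background clearly by the scanner's flag ("well above background"), and detection of a miRNA required 1 such probe. The arrays detected 186 to 220 mouse miRNAs. Overall brightness differed: the 75th percentile over commonly detected probes was 167 units on the primary array titled control and 261 to 443 units on the others. All arrays were on 1 slide. Of the marker lists, 5 of 5 neural miRNAs were detected on each array, and their summed intensity was 2584 and 5125 units in primary and 16740 and 10726 units in secondary neurospheres, titled control first, most of it from miR-125b-5p. Haematopoietic, muscle, liver, endothelial and epithelial markers were detected on 0 arrays. Mesenchymal markers were detected for 1 of 5 miRNAs on the arrays titled control and 3 of 5 on those titled NFIA OE.

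The mature sequences show how much of the cluster is one seed family. RefSeq (GRCm38.p6) matched 13 of the 14 members, all but miR-292-3p. The lines below give 4 of the 5 3′ strands that carried signal, then 3′ strands of the same cluster that gave none. The single 5′ strand that gave signal follows, and then the miR-302 cluster miRNAs found with the same seed in the RefSeq table. Sequences run 5′ to 3′, and capitals mark the seed.
miR-291a-3p: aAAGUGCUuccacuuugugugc
miR-294: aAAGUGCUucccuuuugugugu
miR-295: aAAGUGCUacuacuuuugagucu
miR-293: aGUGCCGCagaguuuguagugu
miR-291b-3p: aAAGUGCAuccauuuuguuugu
miR-290-3p: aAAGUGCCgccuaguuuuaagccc
miR-290-5p: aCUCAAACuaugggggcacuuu
miR-302b: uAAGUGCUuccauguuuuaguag
miR-302d: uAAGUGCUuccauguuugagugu

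The seed AAGUGCU was carried by 3 of the 13 matched members, miR-291a-3p, miR-294 and miR-295, and also by miR-302b and miR-302d. The first 6 of these 7 bases, AAGUGC at bases 2 to 7, occurred in 8 of the 1679 mature mouse miRNAs of the RefSeq table, and 5 of those 8 were members. The table lacks miR-292-3p and may lack other miRNAs, so these counts can be incomplete. The seeds of miR-290-3p, AAGUGCC, and miR-291b-3p, AAGUGCA, differ from the shared seed only in the last base. miR-293 has another seed, GUGCCGC, which begins 2 bases further into the same AAGUGC-type 5′ end. The 5p strands are alike in their own way, since 5 of the 7 begin with ACUCAAA.

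Outside the seed the 3′ strands range from nearly identical to clearly distinct. miR-291a-3p and miR-294 had the same base at 19 of 22 positions counted from the 5′ end and differed by A12C, C13U and C22U. miR-291b-3p had the same base as miR-294 at 19 of 22 positions, where the changes from miR-294 were U8A, C12A and G19U. miR-295 shared only 12 of 22 positions with miR-294 and 15 of 22 with miR-291a-3p. Cross-hybridisation between probes of these near-identical strands was not tested.

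The 7 hairpins lie on the plus strand between bases 3218626 and 3220841 of chromosome 7 (GRCm38.p6), a span of 2216 bp. Their order is Mir290a, Mir291a, Mir292, Mir291b, Mir293, Mir294 and Mir295, with gaps of 48 to 782 bp, the widest between Mir291b and Mir293. The annotated long non-coding RNA D7Ertd143e contains 6 of the hairpins, all but Mir290a, and the annotated span of the protein-coding gene Nlrp12 also covers 6. The miRNA genes Mir290b and Mir292b are annotated on the opposite strand, across Mir290a and Mir292. In hairpins, the mature 3′ strands sit in the right arm, shown in capitals for one that gave signal, Mir294 at chr7:3220641-3220724, and one that did not, Mir291b at chr7:3219482-3219560.
Mir294: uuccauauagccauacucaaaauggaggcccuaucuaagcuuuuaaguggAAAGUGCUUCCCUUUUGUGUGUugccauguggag
Mir291b: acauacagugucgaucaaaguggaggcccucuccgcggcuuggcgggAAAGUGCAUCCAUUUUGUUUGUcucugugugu

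Detection divided the cluster by strand and by passage. Of the 14 members, 5 were detected on the primary array titled control and 6 on the primary array titled NFIA OE. On the secondary arrays 0 were detected titled control and 4 titled NFIA OE. Of all 611 mouse miRNAs, 186, 220, 209 and 207 were detected in the same order of arrays. The 5 members detected on both primary arrays were miR-291a-3p, miR-292-3p, miR-293, miR-294 and miR-295, each the 3′ strand of its hairpin. miR-293 was not detected on either secondary array, and the other 4 were again detected on the secondary array titled NFIA OE. No member was detected on all 4 arrays, where 153 of the 611 mouse miRNAs were.

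The remaining 8 members gave no spot well above background on any array, 0 of 636 spots in all, with probe means of -6.99 to 9.26 units. These were miR-290-3p, miR-291a-5p, miR-292-5p, both strands of miR-291b, and the strands named miR-293*, miR-294* and miR-295*. The highest of these probe means belonged to miR-291b-5p. The lowest signal of any detected probe was 16.6 to 21.9 units, depending on the array, so these 8 members have only an upper limit on their level.

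**Figure D1:**
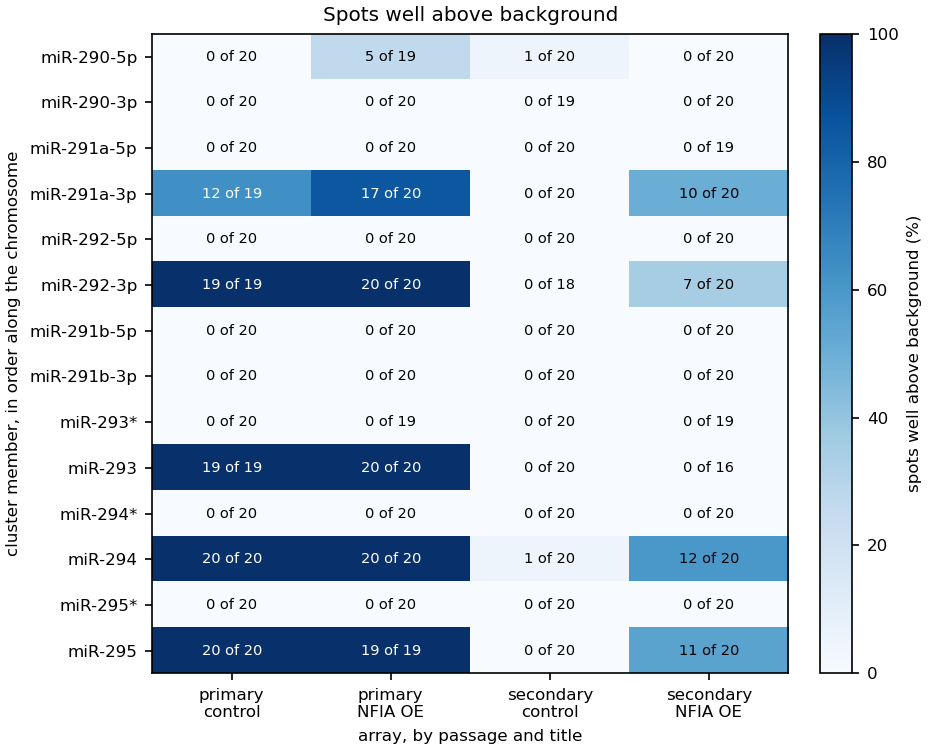
Each row is a cluster member in chromosomal order and each column an array, with the colour giving the percentage of spots well above background over all probes of the member and the text the number of spots. All spots of miR-292-3p, miR-293, miR-294 and miR-295 were above background on both primary arrays, while on the secondary array titled control 1 spot each of miR-290-5p and miR-294 was.

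miR-294, an AAGUGCU miRNA known to promote the ESC cell cycle, had a mean intensity over its 3 probes of 143.5 ± 2.5 units (SE over spots, which is technical error only) on the primary array titled control. It had 201 ± 4.3 units on the primary array titled NFIA OE, 10.7 ± 0.86 on the secondary array titled control and 25.2 ± 1.1 on the secondary array titled NFIA OE. Its level was high on both primary arrays and low on both secondary arrays. The 3 probes kept this order. The brightest had 212 ± 12.3 (SD over 6 spots), 299 ± 22.6, 16.1 ± 4.9 and 37.9 ± 4.6 units, and the dimmest 69.4, 93.9, 4.73 and 12.1 units, in the same order of arrays.

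miR-291a-3p, which shares the miR-294 seed, gave 103 ± 1.5 and 152 ± 2.5 units on the primary arrays and 8.46 ± 0.62 and 19.4 ± 1.2 units on the secondary arrays, titled control first in each pair. Its 3 probes were uneven: the brightest gave 176, 257, 14.3 and 34.7 units, and the dimmest 13.2, 19.3, -0.0029 and 1.72 units. The dimmest probe was detected on 1 array only, the primary array titled NFIA OE. miR-295, the last member of the cluster and the third with this seed, gave 110 ± 1.6 and 173 ± 2.2 units in primary and 9.84 ± 0.86 and 20.9 ± 0.80 units in secondary neurospheres.

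miR-292-3p gave 137 ± 3.0 and 170 ± 3.7 units on the primary arrays against 7.52 ± 0.74 and 19.8 ± 0.83 units on the secondary arrays. Of its spots, 19 of 19 and 20 of 20 were above background in primary neurospheres, and 0 of 18 and 7 of 20 in secondary neurospheres. miR-293, the detected 3′ strand with a shifted seed, gave 76.4 ± 1.7 and 120 ± 2.4 units and then 4.82 ± 0.92 and 12.8 ± 0.37 units. On the secondary array titled NFIA OE 0 of 16 spots of miR-293 were above background, where 12 of 20 spots of miR-294 were. All 5 members thus had the same order of unscaled intensity over the arrays, with the primary array titled NFIA OE highest and the secondary array titled control lowest.

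miR-290-5p was the only 5′ strand to be detected, and by 1 of its 4 probes. That probe gave 14.6 ± 1.2 units on the primary array titled control, 27.4 ± 2.0 on the primary array titled NFIA OE, and 8.98 ± 1.4 and 9.11 ± 1.9 on the secondary arrays. It passed detection only on the array titled NFIA OE in primary neurospheres, with 5 of its 5 spots above background. The other 3 probes of miR-290-5p stayed between 1.55 and 13.9 units on the 4 arrays, so the member rests on a single probe.

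**Figure D2:**
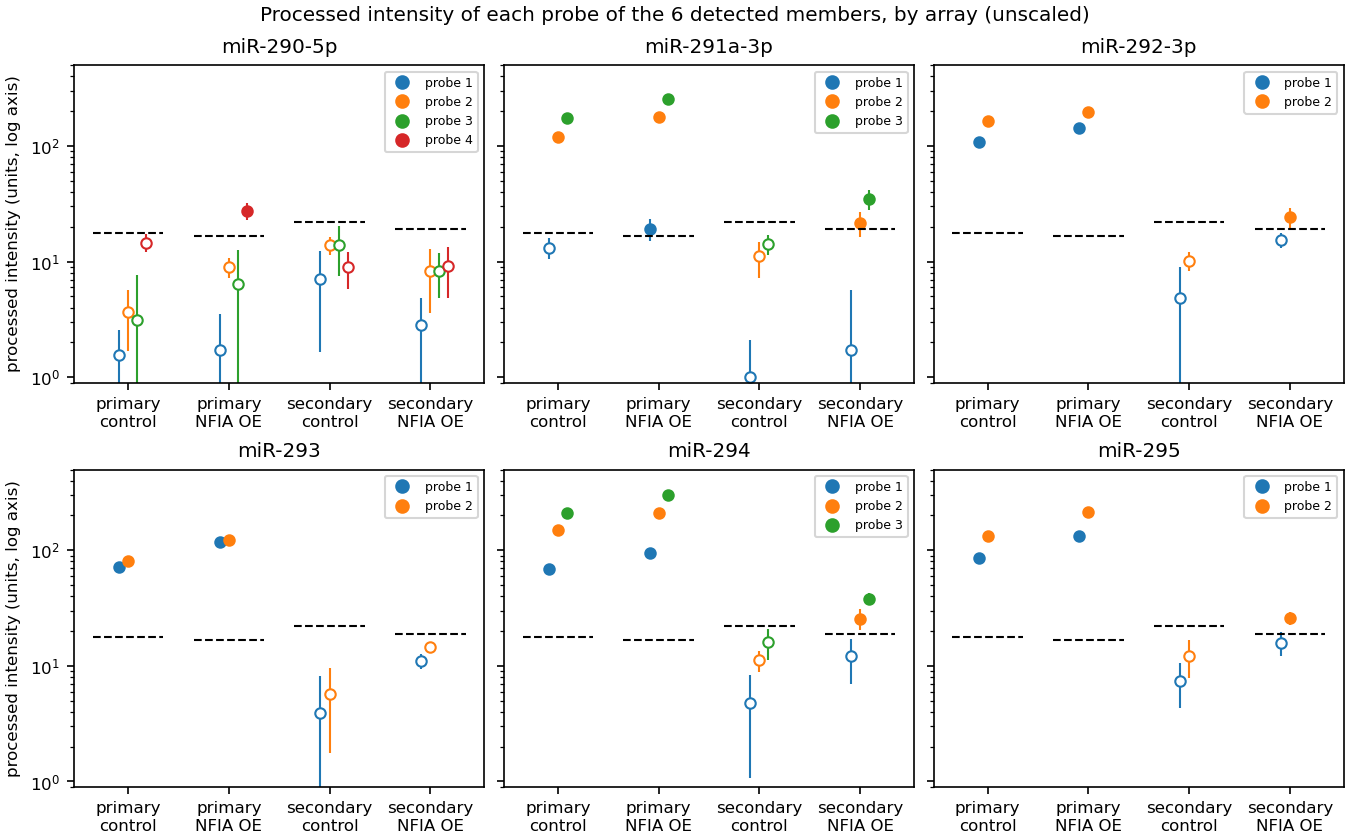
Unscaled processed intensity (log axis; means under 1 unit drawn at 1) of every probe of the 6 detected members on the 4 arrays, as mean and SD over spots, with filled symbols for detected probes, open symbols for probes not detected and a dashed line for the lowest signal of any detected probe on that array. Primary values of the 5 detected 3′ strands stand well above the line except probe 1 of miR-291a-3p, and secondary values lie near or below it.

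The authors' deposited table, which gives 1 value per miRNA on a linear scale of its own, held the same order between passages for the 5 detected 3′ strands. In the authors' deposited table miR-294 had 9.30 and 7.55 in primary and 0.404 and 1.05 in secondary neurospheres, titled control first. miR-291a-3p had 6.60, 5.66, 0.317 and 0.80 in the authors' deposited table, and miR-293 had 5.08, 4.62, 0.187 and 0.552. miR-290-5p did not share this order, with 0.382, 0.429, 0.425 and 0.307 in the authors' deposited table. For the 5 strands the titles differ in order between these sources in the primary pair, where the authors' values are higher on the array titled control and the unscaled intensities on the array titled NFIA OE.

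The first comparison was between passages, asking how the cluster differs between primary and secondary neurospheres. Intensities were divided by each array's 75th percentile and put on the log2 scale, and a member below detection on 1 side was given as a bound, using the lowest detected signal of the dim array or its own signal where that was higher. In cells titled NFIA OE, 4 members were measured on both arrays and were all about 11-fold lower in secondary neurospheres. The log2 difference, secondary minus primary, was -3.55 for miR-295 (SE over spots 0.064), -3.51 for miR-292-3p (0.10), -3.50 for miR-294 (0.076) and -3.47 for miR-291a-3p (0.091). Folds ran from 11.0 to 11.7, and the 4 members did not differ from one another beyond this technical error. miR-295 and miR-292-3p rest on 1 probe each here and the other members on 2. The secondary means of these probes were 21.7 to 37.9 units, where the lowest detected signal was 19.0. With another background correction (normexp) the 4 differences were -2.16 to -1.99. They were the 4 lowest differences among the 188 miRNAs measured on both of these arrays, whose median was -0.39.

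For the other detected members the secondary level is only a limit. miR-293 was at least 8.88-fold lower in secondary cells titled NFIA OE, and miR-290-5p at least 2.03-fold. All 6 detected members were therefore at least 2-fold lower in this pair of arrays, where 21.7% of the 230 miRNAs with a difference or a bound were. The bounds of miR-293 and miR-290-5p could only point in this direction. The 6 members counted were those detected in primary cells, so the count itself is no support. Of the 12 single probes of the 5 detected 3′ strands, the 6 measured on both arrays, from 4 members, had differences of -3.55 to -3.38. The other 6 were bounds of -3.42 to -0.51, the smallest from the dimmest probe of miR-291a-3p.

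In cells titled control every secondary value was a bound, because no member was detected there. The levels were at least 17.5-fold lower for miR-291a-3p, 16.2-fold for miR-292-3p, 15.7-fold for miR-294, 13.0-fold for miR-295 and 9.21-fold for miR-293. All 5 members were past 2-fold, against 34.0% of the 197 miRNAs of that pair. miR-290-5p was below detection on both arrays titled control and has no fold. Bounds have no order among themselves, so the members cannot be ranked in this pair. The size of the bounds depends on the scaling, since the 75th percentile was 2.65-fold higher on the secondary array. Without scaling the log2 bounds were -2.73 for miR-291a-3p, -2.61 for miR-292-3p, -2.57 for miR-294, -2.29 for miR-295 and -1.80 for miR-293.

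**Figure D3:**
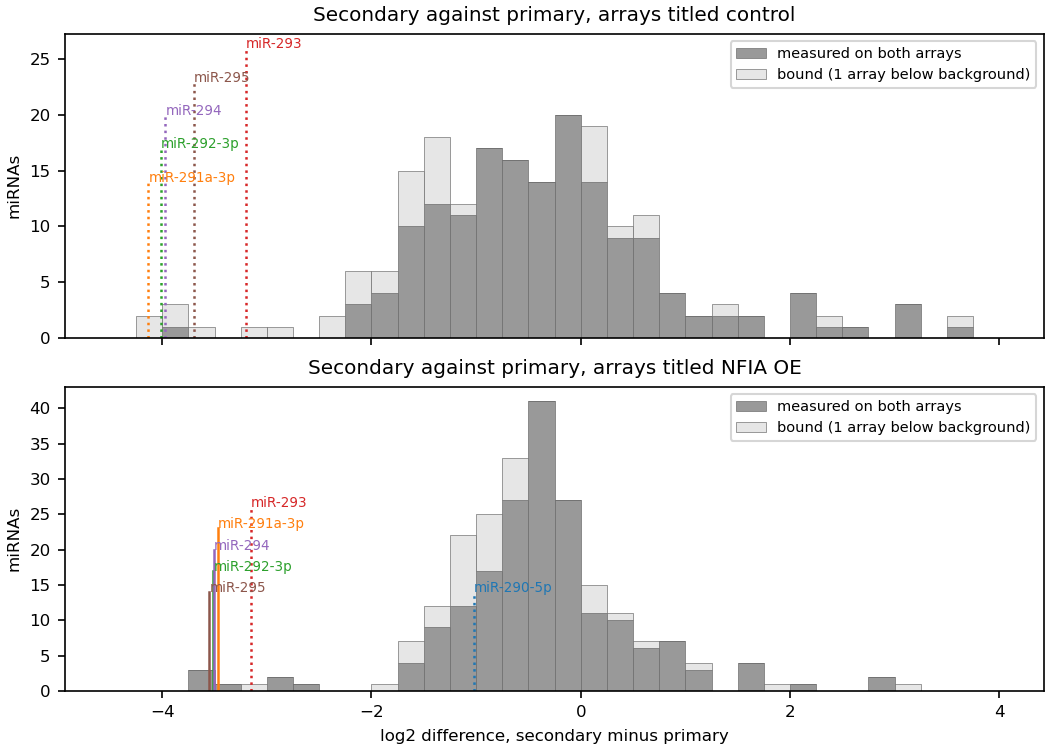
Histograms of the log2 difference, secondary minus primary, over 197 miRNAs for the arrays titled control (top) and 230 for those titled NFIA OE (bottom), with light bars for bounds and vertical lines for cluster members (solid if measured on both arrays, dotted if a bound). In the lower panel the 4 measured members lie together at -3.55 to -3.47, at the left edge of a distribution whose measured median is -0.39.

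The planned test of passage could not include the cluster. It was a limma fit with passage and title as terms over the 153 miRNAs detected on all 4 arrays, and 0 of the 14 members met that filter. In it 32.7% of miRNAs were called lower in secondary neurospheres and 13.1% higher (Benjamini-Hochberg adjusted p under 0.05), and by title 1.31% in each direction. The balance by passage depends on the scaling: 50 miRNAs were lower and 20 higher as scaled here, 5 and 25 when the percentile was taken over all probes, 1 and 20 without scaling, and 17 and 39 from the authors' deposited table as it stands. A fit added after seeing the data used each probe's own signal with no floor and held 250 miRNAs with 6 members. Its probes were detected on at least 1 array and above 0 on all 4. In that limma fit the passage difference was -4.64 ± 0.51 (SE) for miR-292-3p, -4.57 ± 0.45 for miR-293, -4.33 ± 0.46 for miR-294, -4.23 ± 0.40 for miR-295 and -4.20 ± 0.42 for miR-291a-3p. For miR-290-5p it was -2.10 ± 0.29.

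These differences are a description and no p is given for them. The members entered the fit through their primary signal, which builds in a lower secondary value, and no secondary value titled control was above detection. All 6 passed the threshold there, as did 26.4% of the 250 miRNAs in the lower direction, and nothing is read from that count. A fit over the 252 miRNAs detected on at least 1 array, with a common floor for dim values, called miR-293 and miR-295 lower and 0.794% of miRNAs in all. The floor makes the secondary values of a member equal and so removes their spread, and nothing is read from that count either.

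The related miR-302 and miR-367 miRNAs were also dimmer in secondary neurospheres. Of the 8 miR-302 and miR-367 miRNAs on the array, 5 were detected on each primary array and 1 and 3 on the secondary arrays titled control and NFIA OE. These 5, miR-302a to miR-302d and miR-367, were also the fixed markers of pluripotent cells, and their summed intensity was 448 and 507 units in primary and 73.7 and 108 units in secondary neurospheres. Neural miRNAs went both ways between passages. miR-9, a neural progenitor miRNA, was at 279 and 410 units in primary and 3135 and 1851 units in secondary neurospheres. After scaling, miR-9, miR-9* and miR-125b-5p were higher in secondary cells in both pairs. miR-124, a neuronal miRNA, was lower (log2 -1.56 titled control and -1.01 titled NFIA OE), and so was miR-92b (-1.71 and -0.39). In bulk RNA, fewer cells expressing a miRNA and less of it per cell cannot be told apart. The part of these cell-type differences in the cluster's change was not tested.

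Within the pair titled NFIA OE, the passage differences of the miR-302 and miR-367 miRNAs measured on both arrays were -2.90 for miR-302d, -2.81 for miR-367 and -2.53 for miR-302b (5.78-fold). They were smaller in size than those of the 4 measured cluster members, which were 11.0-fold or more. In the pair titled control miR-302b was the 1 miRNA of either family measured on both arrays, at -3.94 (15.4-fold), with its secondary signal equal to the lowest detected signal of that array. The difference between the families rests on 1 pair of arrays and was not tested.

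Profiles over the 4 arrays gave the same neighbours. Each miRNA's scaled log2 levels, with dim values at the floor, were centred on their mean, and the Euclidean distance to the mean profile of the 6 detected members was taken for 246 miRNAs outside the cluster. The nearest 5 were miR-302b (distance 0.389), miR-367 (0.479), miR-302d (0.788), miR-302a (0.971) and miR-410 (1.07). For scale, miR-294 itself was at 0.657 and miR-290-5p at 1.94. With 4 arrays this is a description, and passage dominates every one of these profiles.

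The second comparison was between titles within a passage, the study's contrast of NFIA-overexpressing with control cells. In primary neurospheres all 5 detected 3′ strands were measured on both arrays, and none reached 2-fold, which 4.93% of the 203 miRNAs did in each direction. The log2 difference, titled NFIA OE minus titled control, was -0.32 for miR-292-3p (SE over spots 0.041), -0.17 for miR-294 (0.040), -0.08 for miR-291a-3p (0.035), 0.00 for miR-295 and 0.01 for miR-293. Their spread of 0.33 from lowest to highest contained the median of the 179 measured miRNAs, -0.08. Before scaling, 12 of 12 probes of the 5 members were brighter on the array titled NFIA OE, by 1.18 to 1.62-fold, while the 75th percentile of that array was 1.56-fold higher. The sign of these small differences therefore depends on the scaling. miR-290-5p, detected on the primary array titled NFIA OE only, has no title difference. Its scaled log2 level there, -3.25, did not exceed the lowest detected level of the array titled control, -3.24.

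In secondary neurospheres the title difference was a bound for each of the 4 detected members. Each bound is positive because only the array titled NFIA OE passed detection, so its sign was not free to vary. Relative to the array titled control, the levels on the array titled NFIA OE were at least 1.70-fold higher for miR-294 (log2 0.77), 1.5-fold for miR-291a-3p (0.59), 1.42-fold for miR-295 (0.50) and 1.32-fold for miR-292-3p (0.41). miR-293 and miR-290-5p were below detection on both arrays. None of these bounds reached 2-fold, which 5.0% of the 220 miRNAs did in the higher and 0.909% in the lower direction, but a bound under 2-fold does not limit the difference itself. All 4 members were past 2-fold from the total gene signal (log2 1.33 to 1.64) and from the authors' deposited table as it stands (1.23 to 1.54), as were miR-291a-3p (1.01) and miR-294 (1.07) from pooled spots. Unscaled, 12 of 12 probes had the higher mean on the array titled NFIA OE, and the 75th percentile of that array was 0.832 of the other's. The share of all probes with this direction was not taken, so nothing is read from the count. No probe was above detection on the array titled control, so no fold is read from these signals. If the source names are right, the brighter array held WT cells.

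The miR-302 and miR-367 miRNAs gave title differences of -0.68 to -0.31 in primary cells, and in secondary cells 0.85 for miR-302b, with bounds of 0.65 for miR-367 and 0.12 for miR-302d. The summed intensity of the mesenchymal markers also differed by title, at 70.7 and 375 units in primary and 129 and 597 units in secondary cells, titled control first. Its part in the members' title differences was not tested. In the limma fit with no floor, which uses signals below detection, title differences of the 6 members were 0.28 to 0.85 over both passages. These differences are a description and no p is given for them. miR-290-5p entered this fit by its detection on the primary array titled NFIA OE alone. No member was detected on the secondary array titled control. By title 0.8% of the 250 miRNAs were called higher and 0.0% lower, and nothing is read from these shares for the members. Whether the title difference depends on passage could not be tested with 1 array per group.

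**Figure D4:**
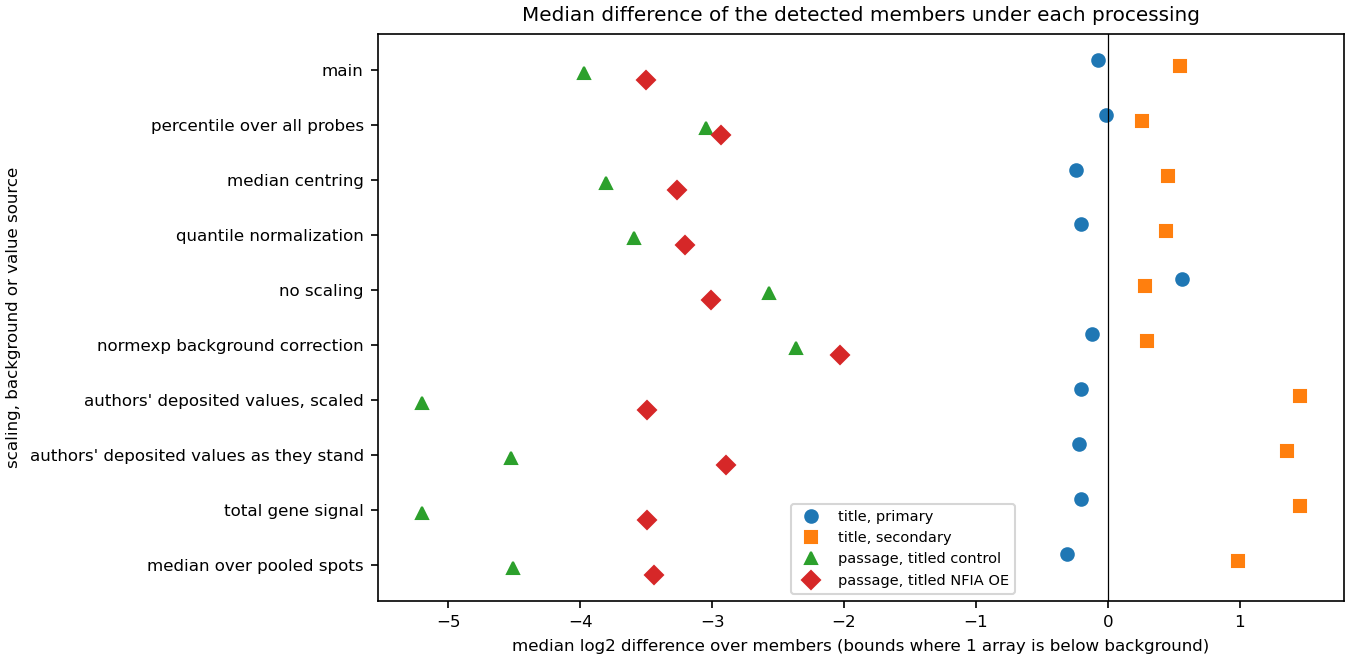
The median log2 difference over the 5 detected 3′ strands (4 in the secondary pair by title) is plotted on the x axis for each scaling, background correction or value source on the y axis, with 1 symbol per pair of arrays. The primary pair by title, measured on both arrays, lies near 0 and reaches 0.57 without scaling. Both passage pairs lie below 0 and the secondary pair by title above 0. For the passage pair titled control and the secondary pair by title this sign follows from detection on 1 array only, so it could not change.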

How the data were processed

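Total RNA was labelled with Cy3 and hybridised to 1-colour Agilent mouse miRNA arrays. Spot values in the deposited scanner files are linear intensity from Feature Extraction 10.5.1.1. The file headers give them as background-subtracted, and arrays were not scaled to each other. In the authors' deposited table each miRNA has 1 linear intensity, equal to the total gene signal of the scanner over an array constant (20.3, 34.1, 33.7 and 31.0, in the order primary control, primary NFIA OE, secondary control, secondary NFIA OE), with no log and no centring. Its column medians were 0.882, 0.830, 0.700 and 0.816, and the sources used here do not give the reason for the constants.

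Of 13000 spots per array, 265 to 300 had outlier flags and were dropped, and 0 were saturated. Spots were averaged per probe, arrays were scaled by the 75th percentile of the probes that all 4 arrays detected, and log2 was taken. Differences used the mean of those probes of a miRNA that were detected on both arrays of a pair. Its intensity is the mean over probes detected on at least 1 array, or over all its probes where none was. Bounds set the bright mean against the higher of the dim probe's own signal and the lowest detected signal of its array. For a miRNA, a bound was kept only where the detected side stayed the higher.

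Tests used limma 3.58.1 in R 4.3.3, with passage and title as terms, 1 residual degree of freedom per miRNA and Benjamini-Hochberg adjustment over all miRNAs fitted. In the planned fit limma pooled the spread over miRNAs, with 153 total degrees of freedom, so its calls rest on a shared spread. The total was 5.76 in the fit with no floor and 1.49 with detection on at least 1 array. The fit was tested on simulated data with an equal spread for every miRNA. The p-values reflect the spread among these arrays alone, and the 2 arrays of a passage share 1 mixed culture. Single pairs of arrays were given with no test, at a 2-fold limit.

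The text names all members, the miR-302 and miR-367 miRNAs and the 5 nearest profiles. Of miRNAs outside the cluster with AAGUGC at bases 2 to 7 in the RefSeq table, the sequences of miR-302b and miR-302d are given and the rest only counted. The members, the lists and the tests were chosen with earlier results of these data known. Sequences are from RefSeq. Alternatives covered scaling, background, value source, summary over spots and detection.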

Additional observations from a re-analysis of the deposited data

Results flagged for a closer look

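For 3 members the title difference, titled NFIA OE minus titled control, was negative in primary cells and a positive bound in secondary cells, with 1 array per group. It was -0.08 in primary cells and at least 0.59 in secondary cells for miR-291a-3p, -0.32 and at least 0.41 for miR-292-3p, and -0.17 and at least 0.77 for miR-294, on the log2 scale. The secondary bounds are positive because only the array titled NFIA OE passed detection, so their sign was fixed by the detection rule. The difference between passages was not tested. Without scaling the primary values of these 3 members are above 0 as well.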

How the results depend on the processing

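Passage differences of the 5 detected 3′ strands were taken under 9 scalings, background corrections and value sources, 45 values in each pair. They were -5.63 to -1.80 in cells titled control and -3.66 to -1.59 in cells titled NFIA OE. A bound of a member was kept only where the array that passed detection was the higher, which fixes its sign. Every value titled control and those of miR-293 titled NFIA OE were bounds, so their sign could not change. The 4 members measured on both arrays titled NFIA OE stayed negative under each setting. The scaled deposited table and the total gene signal hold the same values up to rounding, so they are not separate checks. The median over members was -3.97 in cells titled control. It became -3.05 with the percentile over all probes, -3.59 with quantile normalization, -2.57 without scaling and -2.36 with normexp (offset 50). It was -5.20 from the authors' deposited table after scaling and from the total gene signal, -4.53 from that table as it stands and -4.51 from pooled spots. In cells titled NFIA OE the median was -3.50 and became -2.93, -3.20, -3.01 and -2.03 in the order of the first 4 settings, and -2.90 from the authors' deposited table as it stands. By title, the secondary median of 0.55 became 1.46 from the authors' deposited table after scaling and from the total gene signal, 1.36 from the table as it stands and 0.99 from pooled spots. All 36 secondary values were bounds with detection on the array titled NFIA OE only, so they could only be positive. The primary median of -0.08 became 0.57 without scaling, where all 5 members were positive, 3 of them with a changed sign. In all, 38 of 45 primary values were negative. The cause of these moves was not tested.

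On the secondary array titled control 2 members counted as detected where 1 spot sufficed (miR-290-5p and miR-294) or by the scanner's own gene flag (miR-291a-3p and miR-294), in place of 0. The count of members called by passage was 0 of 0 in the planned limma fit, 0 of 14 with no filter (5 at an unadjusted p under 0.05), 0 of 2 with the scanner's gene flag (2 unadjusted), 2 of 6 with detection on at least 1 array and 6 of 6 with no floor. The last was chosen after seeing the data, as were the single probes. By title it was 0 in each (0 unadjusted), and nothing is read from the title count with no floor. The scaling shifts the median passage difference of the 153 fitted miRNAs from -0.39 to 0.36 with the percentile over all probes and to 0.56 without scaling. Differences relative to the median miRNA of the fit gave no value, since no member was in it. No block by replicate number was possible because each group has 1 array, so the groups share fewer than 2 replicate numbers. No replicate could be left out. Passage, which the 2 arrays of a mixed culture share, was a term of the planned fit. The number of arrays limits the precision, and the secondary levels lie near background.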
